A study of Mus musculus with 18 samples.

Results

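The plasminogen activation system was followed through 7 genes in whole islets of Langerhans, the endocrine cell clusters of the pancreas. The genes were Plat, Plau, Plaur, Serpine2, Serpini1, S100a10 and Anxa2, taken by symbol from the 53801 mouse genes in the count tables. All 7 passed the filter on low counts, as did 18364 genes in all. Mice were 5 weeks old, ate normal chow, and were either wild type (WT) or heterozygous for the S64F variant of MafA (S64F/+), a beta-cell transcription factor. Males gave 4 libraries of each genotype and females gave 5 of each. The sources used here do not give the strain, how the allele was made or whether islets of several animals were pooled. No label ties a replicate to an animal of its own, and the p-values reflect the spread among these libraries only, which may be technical.

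Plasminogen is a circulating zymogen that the tissue-type activator tPA (gene Plat) and the urokinase-type activator uPA (gene Plau) cleave to plasmin, a protease that dissolves fibrin and cuts matrix proteins. Urokinase acts while held at the cell surface by its receptor, uPAR (gene Plaur), and the heterotetramer of annexin A2 (Anxa2) with p11 (S100a10) gathers plasminogen and tPA at the membrane. Protease nexin-1 (Serpine2) inhibits tPA, uPA and thrombin, and neuroserpin (Serpini1) inhibits tPA. In nerve cells and neuroendocrine cells tPA is stored in secretory granules and released on stimulation.

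On GRCm38 the genes lie apart from one another, and all 7 are annotated as protein coding. Plat spans chr8:22757727-22782844, Plau chr14:20836660-20843385 and Plaur chr7:24462484-24475968, all on the plus strand. Serpine2 spans chr1:79794197-79861180 on the minus strand. Serpini1 spans chr3:75557547-75643495, S100a10 chr3:93555080-93564643 and Anxa2 chr9:69453620-69491795, on the plus strand. Anxa2 overlaps the antisense gene Gm16144 and the microRNA gene Mir3109, and Serpini1 overlaps the provisional gene Gm37672 on its own strand. The sources used here do not say whether counting used strand, so reads from these overlaps cannot be assigned with certainty.

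Promoters are shown for the 4 of the 7 genes that have a RefSeq window (GRCm38.p6), of which Plaur, Serpine2 and Anxa2 rose and Serpini1 fell in male S64F/+ islets. Each window is the 250 bases before the start that RefSeq gives. The windows are chr7:24462233-24462482 for Plaur, chr1:79858666-79858915 on the minus strand for Serpine2, chr3:75557243-75557492 for Serpini1 and chr9:69453433-69453682 for Anxa2. RefSeq starts differ from the spans above, which are those of GENCODE, and the Serpine2 window lies inside the GENCODE span of that gene and the Anxa2 window runs into it. Capitals mark matches to the motifs searched on both strands.
Plaur: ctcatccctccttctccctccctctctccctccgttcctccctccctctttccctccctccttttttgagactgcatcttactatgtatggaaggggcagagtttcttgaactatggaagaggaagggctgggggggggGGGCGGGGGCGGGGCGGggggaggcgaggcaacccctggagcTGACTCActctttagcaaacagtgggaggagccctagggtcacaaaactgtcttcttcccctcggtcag
Serpine2: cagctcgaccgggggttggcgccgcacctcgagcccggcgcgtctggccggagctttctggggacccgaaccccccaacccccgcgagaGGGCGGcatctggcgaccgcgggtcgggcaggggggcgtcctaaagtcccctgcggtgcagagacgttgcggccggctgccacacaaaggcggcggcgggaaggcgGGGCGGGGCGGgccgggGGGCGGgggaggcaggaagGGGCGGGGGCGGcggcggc
Serpini1: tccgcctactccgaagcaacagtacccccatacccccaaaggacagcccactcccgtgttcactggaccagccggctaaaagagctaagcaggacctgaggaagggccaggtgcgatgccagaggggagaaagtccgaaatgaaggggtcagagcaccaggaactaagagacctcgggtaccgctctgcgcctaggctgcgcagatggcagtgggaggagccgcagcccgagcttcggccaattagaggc
Anxa2: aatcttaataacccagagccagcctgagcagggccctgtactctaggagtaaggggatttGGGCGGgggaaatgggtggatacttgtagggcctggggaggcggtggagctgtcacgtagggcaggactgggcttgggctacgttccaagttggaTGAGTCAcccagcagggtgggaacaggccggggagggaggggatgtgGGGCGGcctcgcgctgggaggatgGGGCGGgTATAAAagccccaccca
The motifs were the MAF half-site core TGCTGA, the AP-1 or TPA-response core TGANTCA, the cAMP response element TGACGTCA, the GC box GGGCGG and the TATA box TATAAA. They occurred in 16.1%, 6.75%, 1.55%, 32.7% and 12.4% of 32851 RefSeq promoter windows of this length, respectively. The AP-1 core was matched once in Plaur, starting at base -69 (counted from -1, the base before the RefSeq start), and once in Anxa2, at base -95. Plaur held 3 GC boxes, the last 2 sharing a base, and Anxa2 held 3 GC boxes and a TATA box at base -17. Serpine2 held 6 GC boxes and no other match, and Serpini1 held none of the 5 motifs. The TGCTGA and TGACGTCA letters were in none of the 4 windows. A match describes letters and not a bound site, and no letters found in this window say nothing about a factor.

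The 18 libraries held 19.3 to 108.7 M counts, with a median of 42.4 M. Levels are given as counts-per-million values (CPM, scaled by trimmed mean of M values), with mean ± SD over libraries. Fold changes are log2 values ± SE from edgeR's quasi-likelihood test on all 18364 genes, with Benjamini-Hochberg adjusted p-values and a threshold of 0.05. In male S64F/+ against WT islets 5 of the 7 members rose and 1 fell, where 27.6% of all tested genes changed (15.4% rose and 12.3% fell). In females 5 of 7 rose and none fell, where 21.2% of all tested genes changed (10.2% rose and 11% fell). The median log2 difference over the members was 1.2 in males and 0.74 in females, beside -0.03 and 0.02 over all tested genes. The members were chosen with earlier results of these data known. These counts and medians, and the member counts below, therefore do not test whether the system changed more than other genes.

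**Figure D1:**
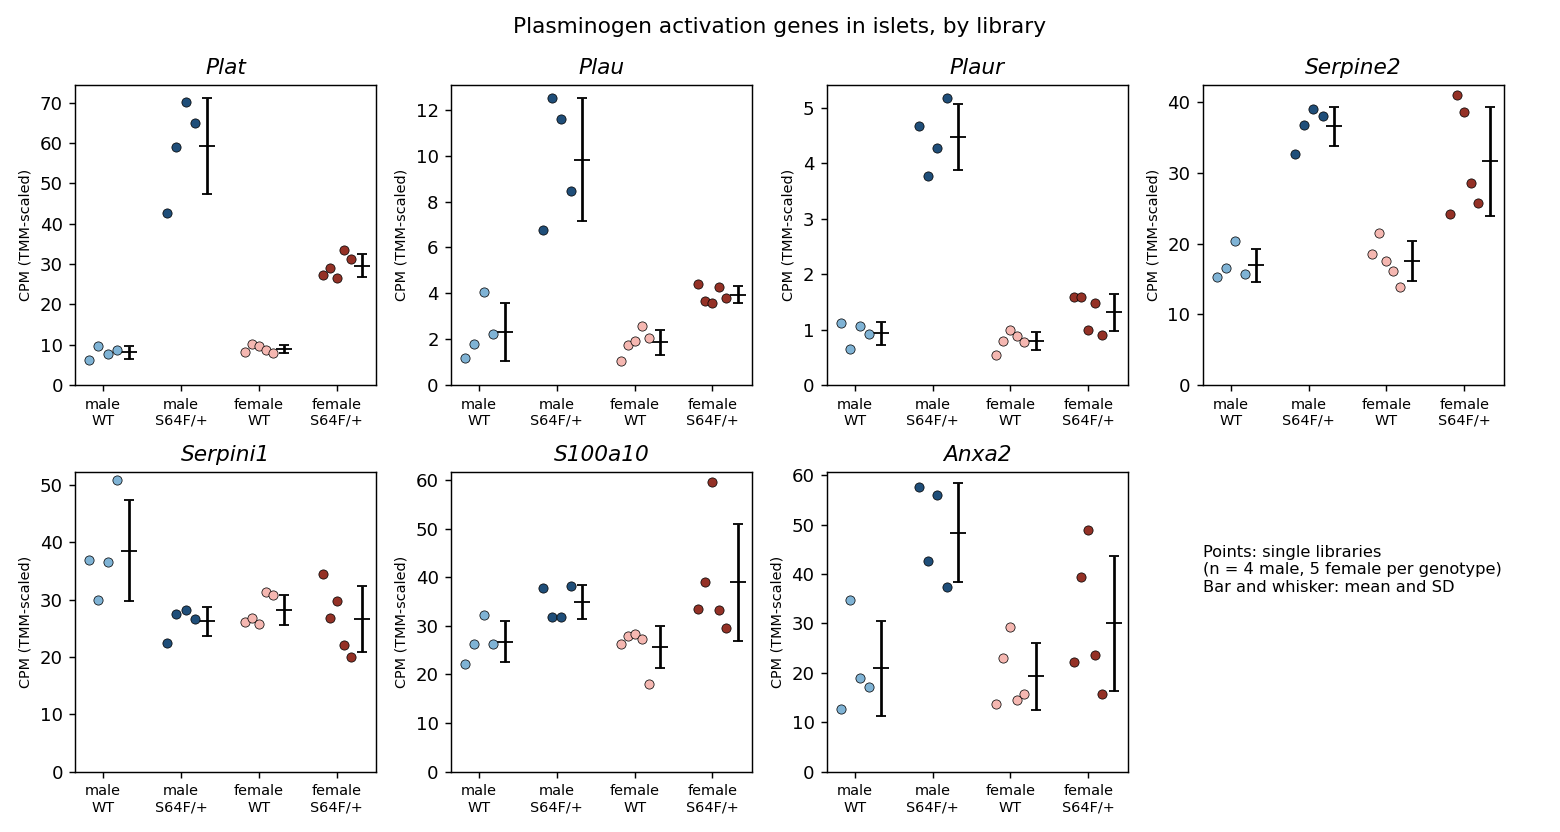
Expression of the 7 genes in CPM (linear axis, own scale per gene) in each of the 18 islet libraries, grouped by sex and genotype, with the group mean and SD beside the points. Plat runs from 42.6 to 70.1 in male S64F/+ and from 26.6 to 33.6 in female S64F/+ libraries, above every WT library.

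Plat, the gene for tPA, stood at 6.14, 9.65, 7.78 and 8.74 CPM in the 4 male WT libraries and at 42.6, 59.1, 70.1 and 65.1 CPM in the 4 male S64F/+ libraries. In females it stood at 8.24, 10.2, 9.64, 8.81 and 8.01 CPM in WT and at 27.3, 29.1, 26.6, 33.6 and 31.3 CPM in S64F/+ libraries. The WT libraries of both sexes shared one range, all female S64F/+ libraries lay above it, and all male S64F/+ libraries lay above those. The rise was 2.87 ± 0.15 on the log2 scale in males, or 7.29-fold (adjusted p = 3.39e-09, edgeR), the smallest p of all 18364 genes tested there. In females the rise was 1.72 ± 0.13, or 3.3-fold (adjusted p = 1.02e-07, edgeR), the 15th smallest p. The size of a change and its p rank differently: by size Plat came 240th in males and 334th in females. The male rise exceeded the female rise by 1.14 ± 0.2 log2 (interaction adjusted p = 0.00811, edgeR).

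Plau, the gene for urokinase, was the activator with the lower level per length in all 4 groups. It measured 1.16, 1.78, 4.06 and 2.24 CPM in male WT and 6.75, 12.5, 11.6 and 8.48 CPM in male S64F/+ libraries. In females it measured 1.03, 1.73, 1.93, 2.56 and 2.03 CPM in WT and 4.39, 3.66, 3.57, 4.29 and 3.79 CPM in S64F/+ libraries. The genotypes did not overlap in either sex, although male WT library 3 (4.06 CPM) reached the level of the female S64F/+ libraries. Plau rose by 2.08 ± 0.31 log2 in males (4.21-fold, adjusted p = 9.03e-05, edgeR) and by 1.1 ± 0.28 in females (adjusted p = 0.00826). The male minus female difference of 0.97 ± 0.41 did not pass after adjustment (adjusted p = 0.154), with a 95% interval of 0.11 to 1.83.

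Plaur, the gene for the urokinase receptor, was the lowest of the 7. It gave only 20 to 32 counts per male WT library, so its WT levels carry more counting error than those of the other members. The levels were 1.11, 0.65, 1.06 and 0.912 CPM in male WT and 4.68, 3.77, 4.28 and 5.18 CPM in male S64F/+ libraries. In females they were 0.54, 0.797, 0.985, 0.876 and 0.779 CPM in WT and 1.59, 1.59, 0.997, 1.48 and 0.898 CPM in S64F/+ libraries. Male genotypes were far apart, while female S64F/+ libraries 3 and 5 lay at the upper WT levels, so the female ranges met. Plaur rose by 2.27 ± 0.25 log2 in males (adjusted p = 3.48e-06, edgeR) and by 0.74 ± 0.22 in females (adjusted p = 0.022). The female call did not hold without female S64F/+ library 4 (adjusted p = 0.0538), without female WT library 1 (0.0671), or in a fit of the female groups alone (0.0718). The male rise was larger by 1.54 ± 0.33 log2 (interaction adjusted p = 0.0175, edgeR).

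Serpine2, the gene for protease nexin-1, rose in both sexes together with the activators it inhibits. Male WT libraries gave 15.3, 16.5, 20.4 and 15.7 CPM and male S64F/+ libraries 32.7, 36.8, 39 and 38 CPM. Female WT libraries gave 18.6, 21.5, 17.6, 16.1 and 13.9 CPM and female S64F/+ libraries 24.2, 41.1, 38.6, 28.6 and 25.8 CPM. The genotypes were apart in both sexes, and the female S64F/+ libraries spread more widely than the male ones. The rise was 1.11 ± 0.16 log2 in males (adjusted p = 6.87e-05, edgeR) and 0.85 ± 0.14 in females (adjusted p = 0.000378). No difference between the sexes was detected (0.26 ± 0.22, adjusted p = 0.478), and the 95% interval of -0.19 to 0.71 leaves room for a moderate one.

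Serpini1, the gene for neuroserpin, was the one member that fell, and this was called in males. It stood at 37, 30, 36.5 and 50.8 CPM in male WT and at 22.5, 27.6, 28.2 and 26.6 CPM in male S64F/+ libraries. Female WT libraries held 26.1, 26.9, 25.8, 31.3 and 30.9 CPM and female S64F/+ libraries 34.5, 26.9, 29.7, 22.1 and 20.1 CPM. The male ranges were apart, with male WT library 4 the highest of all 18, and the female ranges overlapped widely. Serpini1 fell by 0.56 ± 0.16 on the log2 scale in males (adjusted p = 0.0142, edgeR), and the female value was -0.08 ± 0.14 (adjusted p = 0.73). The male call was lost without male WT library 4 (-0.4, adjusted p = 0.0726), without male S64F/+ library 1 (0.0516) and when plain library totals replaced the scaling (-0.32, 0.136). The sexes' effects differed by -0.47 ± 0.21, which did not pass (adjusted p = 0.183, 95% interval -0.92 to -0.02). Within WT islets Serpini1 was 0.45 ± 0.15 log2 higher in males, which did not pass either (adjusted p = 0.122).

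S100a10, the gene for p11, measured 22.2, 26.2, 32.3 and 26.3 CPM in male WT and 37.8, 31.8, 31.9 and 38.2 CPM in male S64F/+ libraries. In females it measured 26.2, 28, 28.3, 27.3 and 18 CPM in WT and 33.5, 39.1, 59.6, 33.2 and 29.5 CPM in S64F/+ libraries. The female genotypes were apart, with WT library 5 low and S64F/+ library 3 high within their groups, and the male ranges met between 31.8 and 32.3 CPM. S100a10 rose in females by 0.6 ± 0.17 log2 (adjusted p = 0.0151, edgeR), and the male difference of 0.38 ± 0.19 did not pass (adjusted p = 0.141, 95% interval -0.01 to 0.78). The male difference passed with plain library totals (0.6, adjusted p = 0.0247), in a fit of the male groups alone (0.0205) and without female S64F/+ library 3 (0.0426). The effects of the sexes were not shown to differ (-0.22 ± 0.25, adjusted p = 0.624).

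Anxa2, the gene for the annexin partner of p11, varied widely between replicates. It stood at 12.7, 34.7, 19 and 17.2 CPM in male WT and at 57.7, 42.6, 55.9 and 37.4 CPM in male S64F/+ libraries. In females it stood at 13.7, 23.1, 29.3, 14.6 and 15.7 CPM in WT and at 22.3, 39.4, 49, 23.6 and 15.8 CPM in S64F/+ libraries. Male WT library 2 came close to the lowest male S64F/+ library without reaching it, and the female genotypes overlapped over most of their range. Anxa2 rose in males by 1.2 ± 0.37 log2 (adjusted p = 0.0235, edgeR), and the female value of 0.64 ± 0.33 did not pass (adjusted p = 0.185, 95% interval -0.06 to 1.33). The male call was lost in 5 of 18 fits that left out 1 library, those without male WT library 1 (adjusted p = 0.0722), 3 (0.061) or 4 (0.0702) and without male S64F/+ library 1 (0.0619) or 3 (0.0568). The difference between the sexes was 0.57 ± 0.49 (adjusted p = 0.507).

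**Figure D2:**
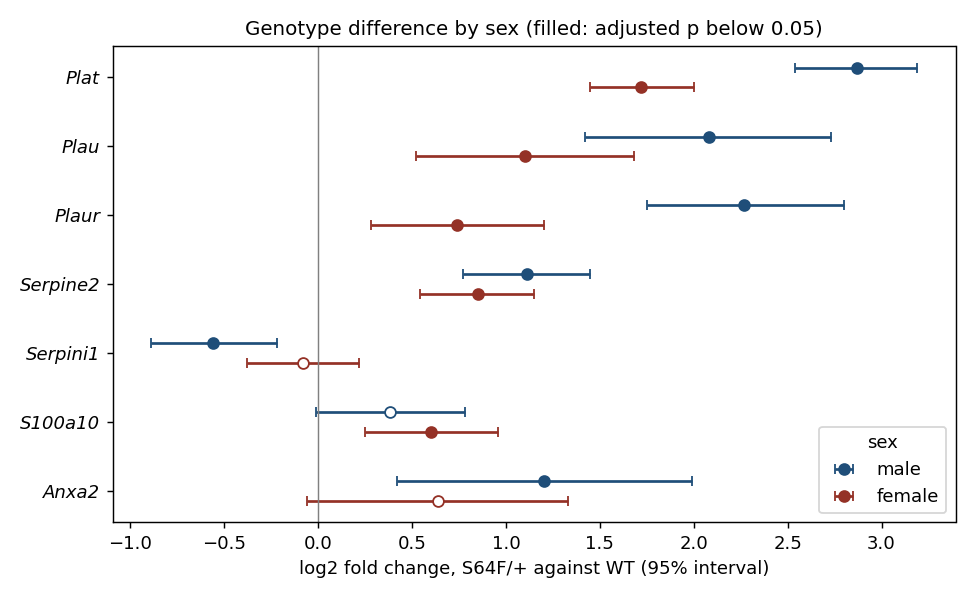
Log2 fold change of S64F/+ against WT islets for each gene (x axis, with 95% interval) in males and females, filled where the adjusted p was below 0.05. Plat has the largest male value (2.87) and the largest female value (1.72) of the 7, and Serpini1 in males is the one called fall (-0.56).

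Across the members, the interaction was called for 2 of 7, Plat and Plaur, where 4.47% of all tested genes were called. At an unadjusted p below 0.05 it was 4 of 7, among them Serpini1, which ranked 4040th of 18364 genes by this p (edgeR). An unadjusted p below 0.05 was therefore common over all genes. Between the sexes in WT islets, 0 of 7 members were called by edgeR or by DESeq2, and 1 (Serpini1) had an unadjusted p below 0.05 in edgeR. The background of adjusted calls in that comparison was 2.36% of all tested genes. The share of all tested genes with an unadjusted p below 0.05 was not counted in any comparison, so such counts have no background here. In WT islets the male minus female value of Plat was -0.14 ± 0.14 log2 (95% interval -0.44 to 0.15), that of Plau 0.34 ± 0.29 and that of Plaur 0.23 ± 0.24. In S64F/+ islets 3 of 7 members were higher in males, the activators and the receptor, where 16.1% of all tested genes were called (8% higher and 8.12% lower). The male minus female values there were 1 ± 0.13 for Plat (adjusted p = 0.000301, edgeR), 1.31 ± 0.28 for Plau (0.00658) and 1.77 ± 0.22 for Plaur (0.000188). For Plat, Plau and Plaur the ranges of male and female S64F/+ libraries were apart, and those of male and female WT libraries overlapped. The share of all tested genes with ranges apart was not counted, so this separation cannot be called particular to these genes. The comparisons share groups and are therefore not independent of one another.

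Levels of different genes were compared per length, as FPKM (fragments per kilobase of gene length, scaled to library total), as deposited by the authors. With plain library totals the median over all genes was 0.19 log2 in males, S64F/+ against WT. FPKM therefore serves to compare genes within a group, and genotype differences are those tested above. S100a10 was the highest member in all 4 groups, at 14.3 ± 2.48 FPKM in male WT, 21.8 ± 2.21 in male S64F/+, 14.3 ± 2.97 in female WT and 21.3 ± 5.68 in female S64F/+ libraries. Its range was apart from that of the next gene in each group, and Plaur was the lowest in each group, also apart from its neighbour. Between these ends the order in male WT islets was Serpini1 (4.18 ± 0.687 FPKM), Anxa2 (2.97 ± 1.56), Serpine2 (1.53 ± 0.247), Plat (1.07 ± 0.239) and Plau (0.579 ± 0.313), with every neighbouring pair overlapping. In male S64F/+ islets Plat stood second at 9.1 ± 1.69 FPKM, overlapping Anxa2 at 7.9 ± 1.76, and both lay above Serpine2 at 3.83 ± 0.226. Serpine2 overlapped Serpini1 (3.34 ± 0.294), which overlapped Plau (2.88 ± 0.786), and Plaur stood at 0.728 ± 0.0897. The female WT order was that of male WT, with Serpini1 at 3.2 ± 0.114 FPKM and Plat at 1.24 ± 0.195. There Plau (0.48 ± 0.123) was apart from Plat, and the neighbours from Serpini1 to Plat overlapped. In female S64F/+ islets Anxa2 (4.28 ± 1.87), Plat (4.01 ± 0.407), Serpini1 (3.01 ± 0.783) and Serpine2 (2.92 ± 0.737) overlapped as neighbours, above Plau (1.02 ± 0.137) and Plaur (0.19 ± 0.0583).

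**Figure D3:**
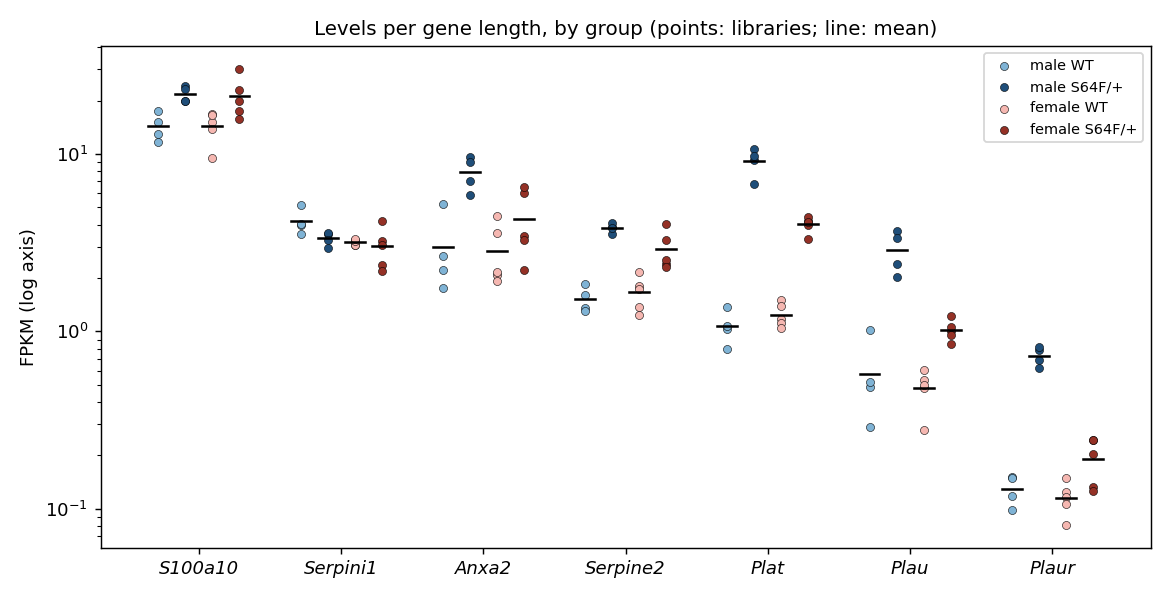
Level per gene length in FPKM (log axis) of the 7 genes, with 1 point per library and a line at each group mean. S100a10 is highest and Plaur lowest in all 4 groups, and Plat moves from a mean of 1.07 in male WT to 9.1 in male S64F/+ libraries. FPKM is scaled to plain library totals, so the size of genotype differences is given by the tests and not by this figure.

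The balance of activator to inhibitor transcripts was not alike in the 2 genotypes. The ratio of Plat to Serpini1 in FPKM, taken within each library, was 0.264 ± 0.0873 in male WT (0.2 to 0.389) and 2.71 ± 0.334 in male S64F/+ libraries (2.29 to 3). In females it was 0.388 ± 0.0648 in WT (0.312 to 0.457) and 1.41 ± 0.429 in S64F/+ libraries (0.954 to 1.88). Neuroserpin transcripts thus exceeded tPA transcripts in all 9 WT libraries, and the reverse held in all 4 male S64F/+ libraries. Against Serpine2, which itself rose, the ratio of Plat was 0.708 ± 0.153 in male WT, 2.36 ± 0.318 in male S64F/+, 0.76 ± 0.0823 in female WT and 1.45 ± 0.386 in female S64F/+ libraries. The ratio of Plau to its receptor Plaur had overlapping ranges in all 4 groups, with means of 4.52 ± 2.05, 4.09 ± 1.6, 4.15 ± 0.789 and 5.67 ± 1.36 in the same order. The ratio of S100a10 to Anxa2 was 5.48 ± 1.77 in male WT and 2.87 ± 0.752 in male S64F/+ libraries, and 5.45 ± 1.67 and 5.35 ± 1.26 in the female groups. These ratios are descriptions with no test, and transcript ratios do not measure protein or enzyme activity.

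Whole islets hold several cell types, and many but not all lists of their markers moved with genotype as well. Fewer cells of a type and less RNA per cell cannot be told apart in such samples. Beta-cell markers, which should define the tissue, summed to 126000 to 307000 CPM in every library. Of these 8 markers 7 fell in males and 6 fell in females. Over all tested genes 12.3% fell and 15.4% rose in males, and 11% fell and 10.2% rose in females. These shares are the background for every marker list below. The sums were 211000 to 288000 CPM in WT and 126000 to 140000 CPM in S64F/+ libraries of males. In females they overlapped, at 166000 to 307000 CPM (median 183000) in WT and 131000 to 244000 CPM (median 203000) in S64F/+ libraries. Most of these sums came from the insulin genes Ins1 and Ins2, and most of the alpha-cell sums below from the glucagon gene Gcg. Ins2 averaged 142000 ± 41300 CPM in female WT and 140000 ± 36000 CPM in female S64F/+ libraries. The sums therefore say little about the other markers. Of the other endocrine markers, 6 of 7 alpha-cell, 4 of 6 delta-cell and 2 of 2 PP-cell ones rose in females. With the replicate number as a block these counts were 6, 3 and 1. Female alpha-cell sums were 34800 to 43100 CPM in WT and 60600 to 83500 CPM in S64F/+ libraries, and delta-cell sums were 2730 to 4210 and 6050 to 8200 CPM, so that both were apart between genotypes. Female PP-cell sums were 3410 to 7140 and 5750 to 16500 CPM. In males 5 of 6 delta-cell markers rose. No alpha-cell or PP-cell marker was called there by edgeR (2 and 1 at an unadjusted p below 0.05), and DESeq2 called 0 and 1. Male sums were 35000 to 44000 and 36500 to 60800 CPM for alpha cells, 2610 to 5170 and 3620 to 5620 CPM for delta cells and 1790 to 5010 and 4690 to 8110 CPM for PP cells (WT first). The part of the endocrine cell types in the differences of the members, Plat in females included, was not tested. No marker of the lists for beta, alpha, delta or PP cells, stellate cells and fibroblasts, endothelium, macrophages, ducts or Schwann cells was at 0 in all 18 libraries.

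Markers of stellate cells and fibroblasts, which express Anxa2, also differed between genotypes. In males 11 of 12 such markers rose with S64F/+ and in females 1 of 12 (0 with the replicate block), and their sums were 365 to 787 CPM in male WT, 2090 to 3090 in male S64F/+, 500 to 1150 in female WT and 457 to 1480 in female S64F/+ libraries. Among the female S64F/+ libraries, 3 and 2 had both the highest Anxa2 (49 and 39.4 CPM) and the highest sums (1480 and 1350 CPM), and library 5 had the lowest of both (15.8 and 457 CPM). Among female WT libraries, 2 and 3 stood above the others in both measures (Anxa2 23.1 and 29.3 CPM, sums 1150 and 1030 CPM). Male WT libraries 2 and 3 had like sums (782 and 787 CPM) and unlike Anxa2 (34.7 and 19 CPM). The part of these cells in the difference of Anxa2 between genotypes was not tested.

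The same female S64F/+ libraries held 26.6 CPM of Plat in library 3, the lowest of the group, 29.1 in library 2 and 31.3 in library 5. Endothelial cells are a known source of tPA, and 8 of 11 of their markers rose in males and 0 of 11 were called in females by edgeR or DESeq2 (4 at an unadjusted p below 0.05 in edgeR). With the replicate block 1 of them, Pecam1, was called in females. Their sums were 511 to 713 CPM in male WT and 957 to 1140 CPM in male S64F/+ libraries, and 594 to 840 CPM in female WT and 626 to 887 CPM in female S64F/+ libraries. The part of endothelial cells in the differences of Plat was not tested in either sex.

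Macrophages are a known source of urokinase and its receptor. Of 11 macrophage markers 8 rose and 1, C1qa, fell in males, and 7 rose in females (5 with the replicate block). The median difference over these markers was 1.32 log2 in males and 0.86 in females. Their sums, which weigh the most abundant markers most, were 93.7 to 134 CPM in male WT and 138 to 179 in male S64F/+ libraries. In females the sums were 84.7 to 122 CPM in WT and 108 to 193 in S64F/+ libraries. Among female S64F/+ libraries, library 1 had both the highest macrophage sum (193 CPM) and the highest Plau (4.39 CPM). Library 3 had the next highest sum (147 CPM) and the lowest Plau of the group (3.57 CPM). Library 4 had a sum of 138 CPM and 4.29 CPM of Plau, and library 2 had 118 and 3.66 CPM. Library 5 had the lowest sum (108 CPM) and 3.79 CPM of Plau. Female WT libraries reached a sum of 122 CPM in library 5, which held 2.03 CPM of Plau. Of 9 ductal markers 5 rose in males and 4 in females. With the replicate block 5 rose and 1 fell in males, and 3 rose in females. Ductal sums (WT first) were 483 to 520 and 747 to 890 CPM in males. In females they were 490 to 550 and 586 to 681 CPM. Of 9 markers of Schwann cells, the glia of the islet, 4 rose in males and 1 in females, with sums of 34.8 to 39.4 and 79.2 to 91.9 CPM in males and 31.6 to 49.1 and 51.4 to 114 CPM in females. The part of these cells in the differences of Plau, Plaur and Serpine2 was not tested. Other lists did not all rise with S64F/+. Of 9 acinar markers tested, edgeR and DESeq2 called none in either sex. Of 5 mesothelial markers 1 rose and 1 fell in each sex. Their sums (WT first) were 272 to 329 and 165 to 224 CPM in males. In females they were 199 to 313 and 133 to 193 CPM. Lymphocyte sums had medians of 5.71 and 3.33 CPM in males and 6.8 and 4.19 in females. Those of neutrophils and mast cells were 10.1 and 16.6, then 13.5 and 18.9 CPM.

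**Figure D4:**
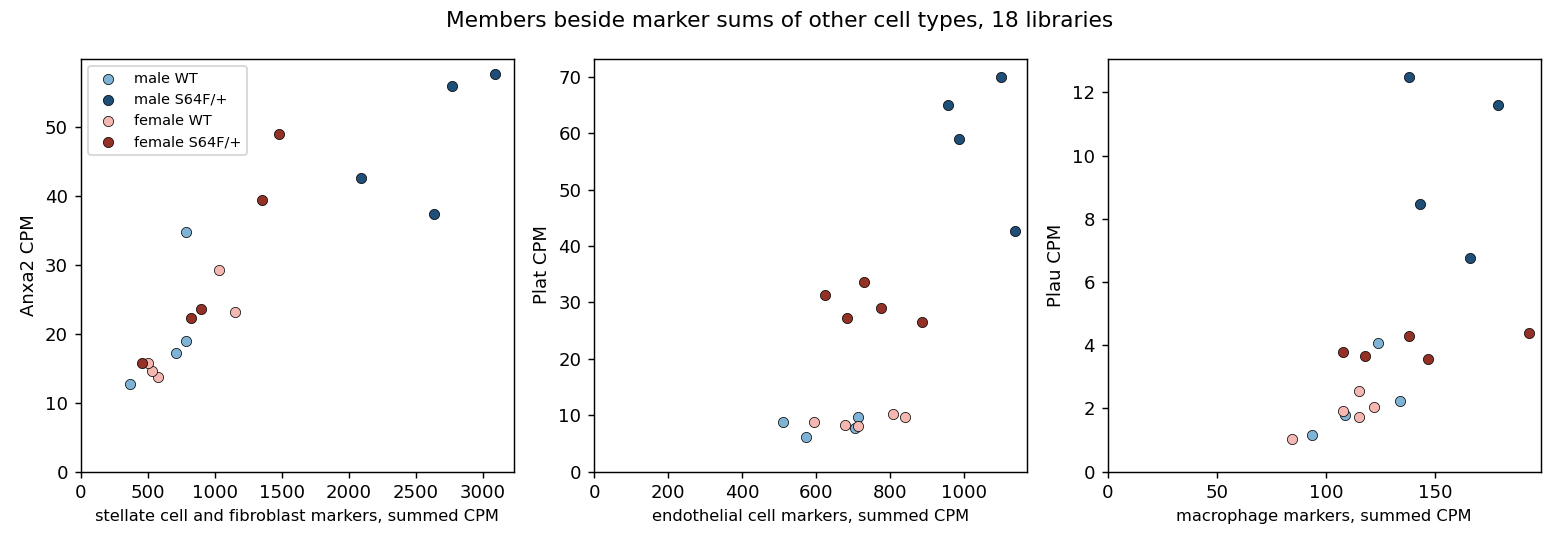
Levels of Anxa2, Plat and Plau (y axes, CPM) against the summed CPM of stellate cell and fibroblast, endothelial and macrophage markers (x axes) in the 18 libraries, colored by group. In females Plat spans 8.01 to 10.2 CPM at endothelial sums of 594 to 840 CPM in WT and 26.6 to 33.6 CPM at sums of 626 to 887 CPM in S64F/+ libraries.

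Genes with the most similar profile were found by the root mean square difference of mean-centred log2 CPM over the 18 libraries, among 13131 genes. For Plat they included Plekhg1 (0.28) and P3h2 (0.3), against a variation of Plat itself of 1.18. Those of Plau were Ctsh (0.42), Capg (0.44) and Itgax (0.44), and those of Plaur were Cd84 (0.35), Cdk6 (0.38) and Afap1 (0.39), with own variations of 1 and 0.97. Serpine2 was closest to Acer2 (0.17), St3gal6 (0.19) and Matk (0.22), and Serpini1 to Lipo3 (0.15), Spcs3 (0.16) and Yipf6 (0.17). S100a10 was closest to Rnaset2b, Tmsb10 and S100a11 (0.19 each), and Anxa2 to Pros1 (0.23), Fcgrt (0.24) and Fam49a (0.25). Among the members themselves the closest pair was Serpine2 and S100a10 (0.32), and the farthest was Plat and Serpini1 (1.36). The binding partners S100a10 and Anxa2 differed by 0.53, as did the activators Plat and Plau, and Plau and its receptor Plaur differed by 0.49. The measure grows with a gene's own variation, which was 0.53 for Serpine2, 0.3 for Serpini1, 0.36 for S100a10 and 0.71 for Anxa2. Serpini1 and S100a10, both of low variation, differed by 0.52, so these values do not rank pairs by likeness alone.

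The remaining genes of the system were covered by lists, which were also chosen with earlier results of these data known. Beside the list counts, 15.4% of all tested genes rose and 12.3% fell in males, and 10.2% rose and 11% fell in females. Plg, the gene for the zymogen plasminogen, gave 5 counts over the male WT and 8 over the male S64F/+ libraries. In females it gave 345 and 279 counts, spread from 0.009 to 4.89 CPM over WT and from 0.0441 to 2.67 CPM over S64F/+ libraries. The fibrinogen genes Fga, Fgb and Fgg were likewise lower in male WT libraries, at means of 0.0138, 1.03 and 0.012 CPM. In female WT libraries they stood at 1.42 ± 2.08, 4.91 ± 5.82 and 2.15 ± 3.21 CPM. Whether Plg reads came from islet cells was not tested. Of 9 genes for plasmin and its inhibitors 6 were tested, 1 rose in males and none was called in females by edgeR or DESeq2 (1, Cpb2, at an unadjusted p below 0.05 in edgeR), with medians of 0.24 and -0.32 log2. Serpinf2, the gene for the plasmin inhibitor alpha-2-antiplasmin, averaged 0.184 to 0.481 CPM over the groups. Serpinb2, the gene for PAI-2, gave 0 counts in both WT groups and 4 over the male S64F/+ group. In female S64F/+ islets it gave 54 counts, all in library 1 (1.16 CPM), and it did not pass the filter on low counts.

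Of 18 genes for plasminogen receptors and for the clearance of activators, 8 rose and 1 fell in males, and 2 rose and 2 fell in females (medians 0.66 and 0.18). The female counts were near the shares over all tested genes. Lrp1, the endocytic receptor that clears tPA and uPA bound to their inhibitors, rose in males from 71.4 ± 12.8 to 164 ± 22.6 CPM (1.19 ± 0.19, adjusted p = 0.000183, edgeR). In females Lrp1 stood at 89.2 ± 22.2 and 109 ± 21 CPM (0.29 ± 0.17, adjusted p = 0.238). Itgb2, the beta subunit of leukocyte integrins, rose in both (1.96 ± 0.3 and 0.9 ± 0.26), the female call being lost in a fit of the female groups alone (adjusted p = 0.0601). Itga5, the alpha subunit of the fibronectin receptor, rose in males (1.39 ± 0.22), and its effect was larger there than in females by 1.19 ± 0.29 (adjusted p = 0.0301, edgeR). The plasminogen receptors Plgrkt and Eno1 did not pass in either sex, with 0.3 ± 0.13 and 0.56 ± 0.21 in males and -0.04 ± 0.11 and 0.21 ± 0.18 in females. In males Eno1 (adjusted p = 0.052, edgeR) passed in 7 of 24 alternative fits, among them plain library totals (0.77, 0.00672), DESeq2 (0.0262), the male groups alone (0.0281) and without male WT library 2 (0.0152), female WT library 3 (0.0292) or female S64F/+ library 1 (0.0235). Plgrkt (adjusted p = 0.0893) passed in 3, with plain library totals (0.52, 0.0268) and without male WT library 1 (0.0408) or 2 (0.0488).

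Of 16 genes for substrates of the activators and plasmin 15 were tested, 7 rose in males and 1 rose in females (medians 1.41 and 0.4). Mmp12, the macrophage metalloelastase, was the one that rose in both, by 3.28 ± 0.33 and 1.88 ± 0.28 log2. Thbs1, the gene for thrombospondin-1, rose in males from 40.8 ± 3.94 to 153 ± 78.5 CPM (1.9 ± 0.35, adjusted p = 0.000876, edgeR). Pdgfd, a growth factor that urokinase activates, and Tgfb1, whose latent product plasmin can release, rose in males by 1.67 ± 0.24 and 0.93 ± 0.16. Their male effects exceeded the female ones by 1.27 ± 0.31 (adjusted p = 0.0301) and 0.91 ± 0.21 (adjusted p = 0.0233, edgeR).

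Relatives of the co-receptor and of the inhibitors moved in several directions. Of 11 other annexin genes 6 rose and 1 fell in males, and 2 rose and 2 fell in females (medians 0.35 and 0.43). With the replicate block 5 rose and 2 fell in females. Anxa6 rose by 0.35 ± 0.09 and 0.44 ± 0.08, Anxa9 rose by 1.55 ± 0.26 and 0.86 ± 0.22, and Anxa1 and Anxa10 rose in males (1.66 ± 0.36 and 3.79 ± 0.73). In females Anxa1 was 0.66 ± 0.32 (adjusted p = 0.159) and Anxa10 2.01 ± 0.77 (adjusted p = 0.0718). Both passed with the replicate block (0.72, adjusted p = 0.022, and 2.05, adjusted p = 0.0337). Anxa10 also passed by DESeq2 (0.044) and without female WT library 3 (0.0395) or male S64F/+ library 1 (0.0443), and it gave only 12 counts over the male WT libraries. Of 13 other S100 genes 8 were tested and 3 rose in each sex (medians 0.73 and 0.63). With the replicate block 4 rose in males and 2 in females. S100a16 rose in both (1.13 ± 0.25 and 0.71 ± 0.22), S100a6 and S100a14 rose in males (2.12 ± 0.58 and 2.94 ± 0.84), and S100a11 rose in females (0.49 ± 0.08). S100a14 gave 8 counts over the male WT libraries, and S100a11 in males was 0.18 ± 0.09, passing with plain library totals (0.4, adjusted p = 0.00496). The female call of S100a16 was lost without female S64F/+ library 3 (0.44, adjusted p = 0.0938), without female WT library 1 (0.067) and without female WT library 2 (0.0502).

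Of 19 other serpin genes, a list that shares members with that of plasmin and its inhibitors, 15 were tested, with 7 rising and 1 falling in males and 2 rising in females (medians 0.81 and 0.44). In the main fit the female count of 2 was near the share of all tested genes that rose (10.2%). With the replicate block 5 rose in females. Serping1, the gene for the C1 inhibitor, rose in both sexes, by 0.95 ± 0.15 and 0.78 ± 0.13. Serpina3n, an acute-phase serpin, rose in males from 0.776 ± 0.283 to 10.8 ± 5.71 CPM, and its effect was 3.06 ± 0.58 log2 larger there than in females (adjusted p = 0.0116, edgeR). Serpinh1, the collagen chaperone, rose in males by 1.33 ± 0.23. Its female value of 0.52 ± 0.2 (adjusted p = 0.0763) passed with the replicate block (0.49, adjusted p = 0.0142), by DESeq2 (0.0322) and without female S64F/+ library 1 (0.0403) or 5 (0.0323). Serpina10, an inhibitor of coagulation factors, fell there by 0.5 ± 0.1. Of 18 coagulation genes 17 were tested, with 7 rising and 2 falling in males and 2 rising and 4 falling in females (medians 0.72 and 0.19). F2r, the thrombin receptor PAR1, rose in males from 7.09 ± 1.05 to 22.8 ± 1.6 CPM, and its effect exceeded the female one by 1.49 ± 0.27 (adjusted p = 0.00932, edgeR). F2rl1, the receptor PAR2, fell in both (-0.53 ± 0.19 and -1.21 ± 0.17), the male call being lost in 12 of 18 fits that left out 1 library. These were all but those without male WT library 1, male S64F/+ library 1, female WT library 4 or female S64F/+ library 1, 3 or 5. It was also lost with plain library totals (-0.31, adjusted p = 0.324, edgeR) and with the alternative RLE scaling (0.0507). The same held with no low-count filter (0.0613) and in a fit of the male groups alone (0.0555). Thbd and Pros1, genes of the protein C anticoagulant pathway, rose in males by 0.81 ± 0.14 and 1.43 ± 0.25.

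**Figure D5:**
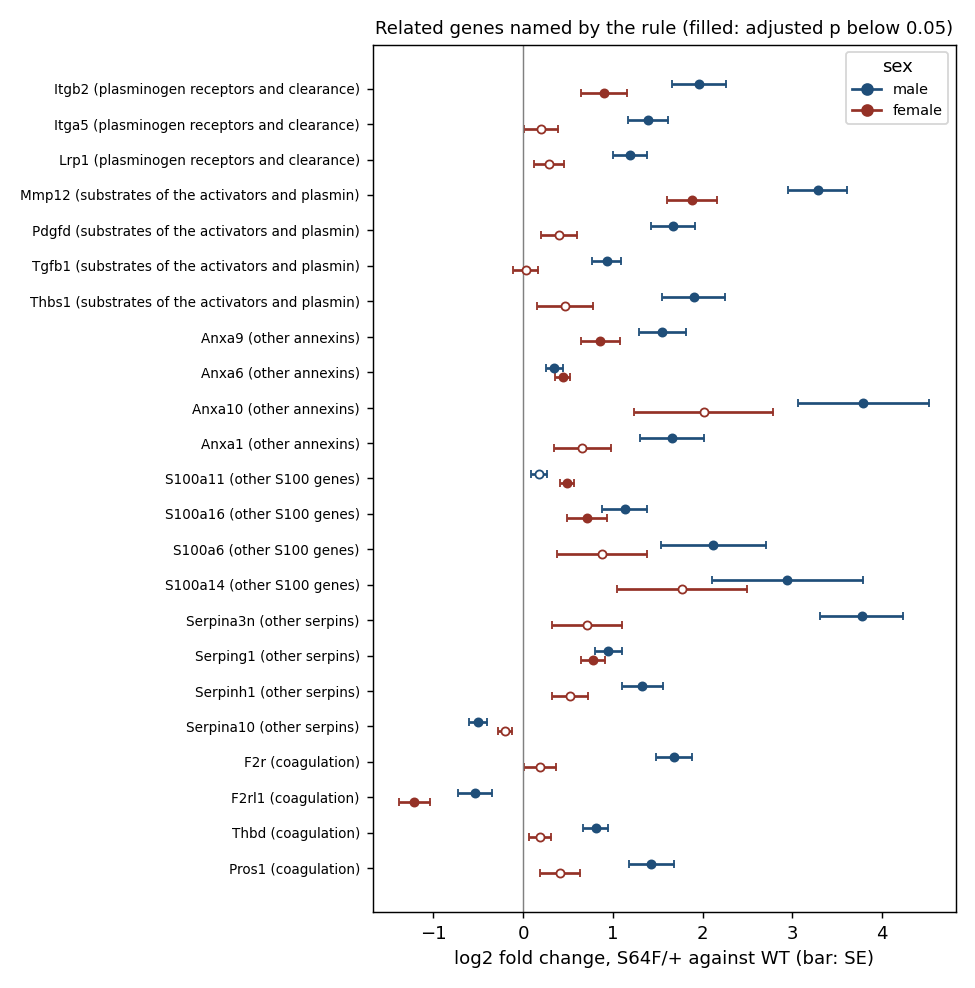
Log2 fold change ± SE of S64F/+ against WT islets in males and females for related genes named by the rule, with the list of each in parentheses, filled where the adjusted p was below 0.05. Serpina10 and F2rl1 lie left of 0 in both sexes, and Mmp12 is called right of 0 in both (3.28 and 1.88).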

How the data were processed

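Raw read counts per gene and library were deposited by the authors. Per the submitters' processing notes, the build was GRCm38 and the tools included featureCounts, STAR, DESeq2, MultiQC and FastQC, whose versions and roles are not recorded. The sources used here give neither the annotation nor the strand setting. The FPKM values, also deposited by the authors, were, for all 33562 genes with a count, that count over its library total and over 1 length per gene (relative tolerance 1e-06). They were used to compare levels between genes and were not tested.

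Of 53900 listed features, 99 spike-ins with 0 counts were dropped. The tests used edgeR 4.0.16 with limma 3.58.1 under R 4.3.3 (filterByExpr by group, minimum count 10 and minimum total 15; TMM scaling). One robust quasi-likelihood fit with a coefficient per group took all 18 libraries, two-sided, with Benjamini-Hochberg adjustment over 18364 genes. The analysis was tested on simulated counts. Alternatives were DESeq2 1.42.0, other scalings, no filter, fits of 2 groups, a replicate block and leaving out each library.

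Gene positions came from GENCODE M21, in which 53706 of the identifiers were found and 95 were not. Named related genes were up to 4 called genes per list by smallest adjusted p, plus Plg, Serpinf2, Serpinb2, Plgrkt, Lrp1 and Eno1. A few genes picked this way, by list or by profile, are left out of the text. Similar profiles were the 3 closest genes of at least 1 CPM on average, on log2 CPM with a prior count of 2. The members and lists were chosen with earlier results of these data known.

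Replicates of a group were not repeats of one library (chi-square per degree of freedom at least 20.4). For libraries that share a number, deviations from the group means correlated at 0.11, 0.299, 0.11, 0.418 and 0.265 in females. For female WT libraries 3 and 4, the S64F/+ library of the same number was not the one that correlated best. The male correlations were 0.0131, -0.244, -0.249 and 0.189. No label pairs the libraries, and the main tests used no pairing in either sex. The replicate block was an alternative fit only, set within each sex for the genotype comparisons.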

Additional observations from a re-analysis of the deposited data

Results flagged for a closer look

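Female WT library 5 was far from the other libraries of its group in S100a10 (18 CPM against 26.2 to 28.3), the gap being 0.796 of the group's range. It was the 1 such case among 28 groups of members, and chance gives about 1 in 20.

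The male and female effects of genotype differed by the interaction test for 2 members, Plat (1.14 log2) and Plaur (1.54), both larger in males. The same test was passed by 5 of the related genes named, Itga5 (1.19), Pdgfd (1.27), Tgfb1 (0.91), Serpina3n (3.06) and F2r (1.49). Itga5 lost this call in 7 of 18 fits that left out 1 library (male WT 1 or 4, male S64F/+ 1 or 3, female WT 2 or 3, female S64F/+ 4; adjusted p up to 0.0788). Pdgfd lost it in 4 (male WT 1 or 4, male S64F/+ 1, female WT 2) and Tgfb1 in 3 (male WT 4, male S64F/+ 1, female WT 2).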

How the results depend on the processing

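Of 840 alternative fits of the 35 member results, 813 kept the direction and the side of the threshold, 11 lost a call, 3 gained one and 13 changed sign, all of these uncalled. Uncalled results that stayed uncalled count among the 813. Leaving out a library outside the groups compared can act only through the filter, scaling and shared spread. The 813 is therefore not by itself a measure of how firm the calls are. The number of members called was 4 to 7 in males and 4 to 5 in females when 1 library was left out, and did not change in the other comparisons. With plain library totals the median over all genes moved to 0.19 in males, 0.25 for the interaction, 0.18 between S64F/+ groups and -0.1 between WT groups, so changes there are relative to these. Higher calls were then 86.4% (55.6% as reported), 97.2% (64.2%) and 88.1% (49.6%) in the first 3, and 76.3% for the interaction with no filter.

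Genes called in all were 3884 in females (2587 with the 2 groups alone), 2962 between S64F/+ groups (1969 with no filter, 1651 to 4298 leaving out 1 library) and 821 for the interaction (1933 by DESeq2, 481 with no filter, 253 to 2152 leaving out 1 library). Between WT groups 434 were called (1024 by DESeq2, 112 with library totals, 252 with no filter, 226 with the 2 groups alone, 71 to 643 leaving out 1 library). The cause of these shifts was not tested.

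Signs changed for S100a10 between S64F/+ groups (0.04 with library totals, -0.24 to 0.05 leaving out 1 library), between WT groups (-0.04 with the replicate block, -0.04 to 0.14) and in the interaction (0.04 with library totals), and for Serpini1 between S64F/+ groups (0.15 with library totals, -0.11 to 0.09). Leaving out 1 library also did so between WT groups for Anxa2 (-0.23 to 0.33), Plau (-0.08 to 0.55) and Serpine2 (-0.15 to 0.03), and in females for Plgrkt (-0.11 to 0.01) and Tgfb1 (-0.08 to 0.09). The replicate block changed no member's genotype call (6, 5 and 2 in males, females and the interaction). Of the related genes named, it added the female calls of Anxa1 (0.72), Anxa10 (2.05) and Serpinh1 (0.49) and the male call of Eno1 (0.59). With it 8 rather than 4 Schwann cell markers rose in males. Deviations of same-numbered male libraries correlated at -0.249 to 0.189, and no label pairs them. Low counts limit the precision of Plaur in both sexes and of Plg in males, and the spread between libraries that of Plg in females.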
